A study of Mus musculus with 25 samples.

Results

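Claudins and cadherins are the families of membrane proteins that set the identity of epithelial cell junctions. The 47 members described here are all genes of the count table whose symbol is Cldn or Cdh followed by a number, 24 claudins and 23 cadherins out of 24984 genes. Desmosomal cadherins, protocadherins and the partners of both families do not carry these symbols and were kept as separate lists.

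Claudins span the membrane in tight junctions. Some of them seal the space between cells, and others, such as claudin-2, form pores for small ions. Cadherins bind calcium and join cells at adherens junctions through like cadherins on the neighbouring cell, with catenins on the inner side. E-cadherin (Cdh1) is the cadherin of most epithelia, N-cadherin (Cdh2) that of neural and mesenchymal cells and also of hepatocytes, and VE-cadherin (Cdh5) that of endothelium. Ras-transformed epithelial cells are known for changes in such molecules.

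RNA was sequenced from BMEL cells, a clonally derived line of bipotential progenitors from mouse embryonic liver, and from tumours that such cells formed. The cultured groups were BMEL cells with an empty vector, RasLOW cells and RasHIGH cells, with 3 cultures each. Both Ras groups carried human H-Ras G12V on a vector with a fluorescent protein and had been sorted by its intensity, with overlapping oncogene levels. Tumours grew in 4 athymic nude mice after injection of BMEL-Ras cells into the liver, and 1 liver tumour and 1 peritoneal tumour of each mouse were split by fluorescence into tumour and stromal cells, which gave 4 libraries in each of 4 groups. Both groups of tumour cells share the Ras transgene, and all 4 groups share the nude host, which lacks T cells. The labels do not say which Ras population was injected, and all cultured cells derive from 1 line.

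Depth lay between 20818989 and 51241336 counts per library, at which 3 counts correspond to 0.0576 to 0.141 CPM (counts scaled to library size), the unit of all levels below. The mouse Hras gene averaged 80.4 CPM with the empty vector, 78.6 in RasLOW and 67.4 in RasHIGH cells, and cannot check the labels, since the transgene is human. Of the markers of the epithelial line, the keratin Krt8 lay between 2521 and 5370 CPM in cultured and tumour cells and between 267 and 641 CPM in stroma, and Krt19 between 1386 and 2810 CPM and between 108 and 339 CPM. Epcam was near 0 in cultured and tumour cells, at no more than 0.838 CPM. Leukocyte markers summed to between 3565 and 6443 CPM in stroma and to between 32.5 and 134 CPM in tumour cells. The peritoneal tumour cells of mouse 1 stood apart from the other tumour cell libraries with 133.7 CPM of leukocyte markers and 810 CPM of fibroblast markers, and results that rest on them are given without them where that matters.

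Few of the family members were expressed. In 1 or more groups, 20 of the 47 reached a mean of 1 CPM (8 claudins and 12 cadherins), and 11 reached 10 CPM (3 claudins and 8 cadherins). Cells with the empty vector had 3 claudins and 7 cadherins at 1 CPM or more, while RasLOW, RasHIGH and both kinds of tumour cells had the same number of claudins and 8 cadherins. Each stroma had 7 claudins and 11 cadherins at that level. The claudins at 1 CPM or more were Cldn2, Cldn12 and Cldn18 in every group of cultured and tumour cells.

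The remaining 27 members stayed below 1 CPM in every group. Cldn8, Cldn16, Cldn24, Cldn34a and Cdh12 had no count in any library, which allows at most 3 counts in each. Cdh8, Cdh18, Cdh19, Cdh20, Cldn14, Cldn17 and Cldn22 had 1 to 13 counts over all 25 libraries together. The other 15, with 24 to 234 counts, were Cdh7, Cdh9, Cdh10, Cdh16, Cdh22, Cdh26, Cldn4, Cldn6, Cldn7, Cldn9, Cldn11, Cldn13, Cldn19, Cldn20 and Cldn23. Cldn4 and Cldn7, sealing claudins of many epithelia, were thus at or near the floor in cells that held Cdh1 at a high level. At the border of the 1 CPM rule, Cdh15 reached 1.28 CPM in its highest group and Cldn11 0.953 CPM.

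**Figure D1:**
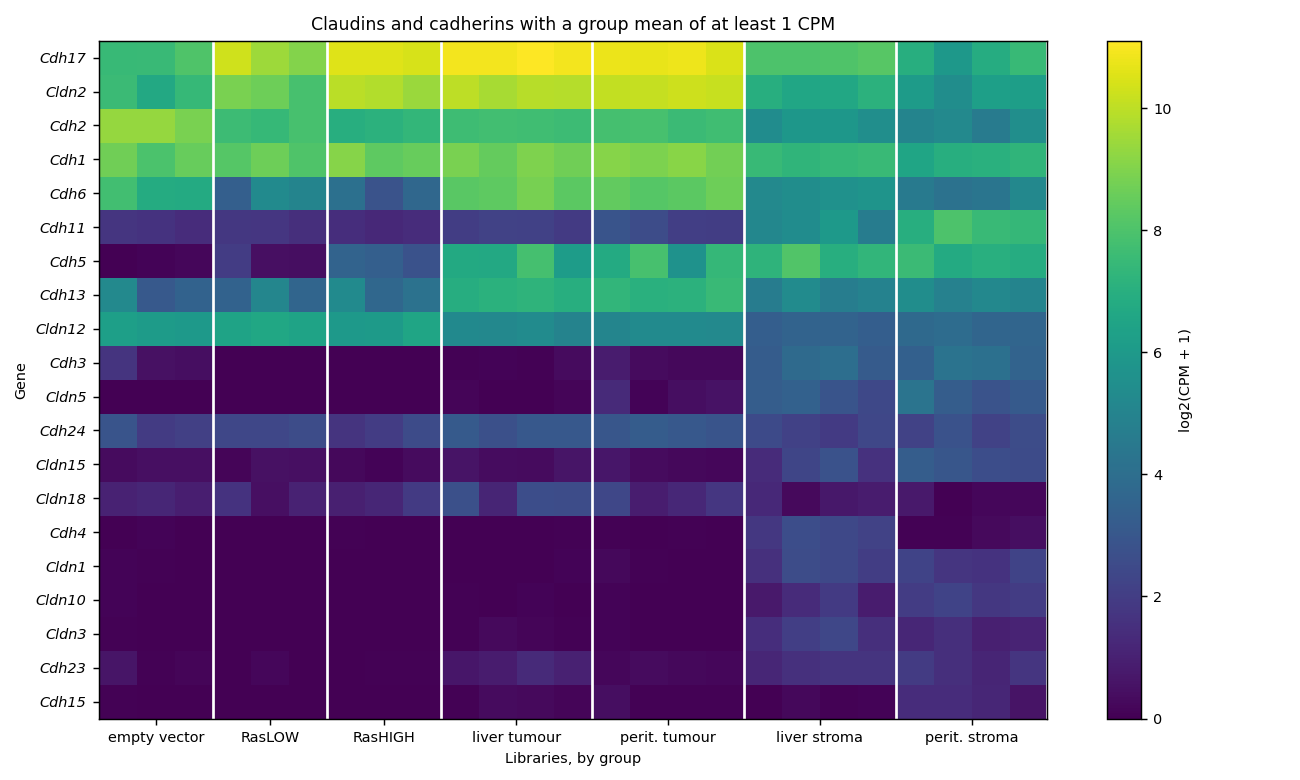
Levels of the 20 members with a group mean of at least 1 CPM (rows, highest first) in each of the 25 libraries (columns, split by group), as log2(CPM + 1). Cdh17, Cldn2, Cdh2 and Cdh1 are bright in cultured and tumour cells, and Cdh11, Cdh3, Cldn5, Cldn15 and Cdh4 are brightest in the stroma columns.

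Compared per length, as RPKM (CPM divided by the annotated exon length in kilobases), the leading members changed place between groups. With the empty vector Cdh1 and Cdh2 led, at 74.7 ± 18.5 and 72.6 ± 13.5 RPKM (SD, n = 3), which did not differ beyond their spread. Cdh6 followed at 55.7 ± 22.8 RPKM, within the spread of both, and then Cdh17 (47.0 RPKM) and Cldn2 (46.9 RPKM). In RasHIGH cells Cdh17 led at 328 ± 15.2 RPKM, ahead of Cldn2 at 260 ± 46.9 RPKM and Cdh1 at 89.9 ± 24.5 RPKM, and Cdh2 was at 17.7 RPKM. Liver tumour cells held 444 RPKM of Cdh17 and 279 RPKM of Cldn2, and peritoneal tumour cells held 372 and 343 RPKM of the same genes. Peritoneal stroma was the group led by Cdh11, at 43.1 ± 12.7 RPKM, a value that overlaps Cdh5 at 33.9 ± 9.21 RPKM within the spread.

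The promoters of Cldn2 and Cdh6 are shown because these genes moved in opposite directions with Ras, and because the RefSeq table used here holds them (33 of the 47 members matched). Each sequence is the stretch of 250 bases before the annotated start on GRCm38.p6, at chrX:139800558-139800807 on the plus strand for Cldn2 and at chr15:13173676-13173925 on the minus strand for Cdh6. Capitals mark the TATA box, searched as TATAAA, and the GC box, searched as GGGCGG, on either strand. The pair of matches in Cdh6 overlap each other.
Cldn2: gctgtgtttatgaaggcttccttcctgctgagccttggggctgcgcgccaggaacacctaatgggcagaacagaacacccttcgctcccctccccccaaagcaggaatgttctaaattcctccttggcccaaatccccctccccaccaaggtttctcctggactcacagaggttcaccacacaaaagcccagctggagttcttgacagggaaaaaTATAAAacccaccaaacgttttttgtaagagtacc
Cdh6: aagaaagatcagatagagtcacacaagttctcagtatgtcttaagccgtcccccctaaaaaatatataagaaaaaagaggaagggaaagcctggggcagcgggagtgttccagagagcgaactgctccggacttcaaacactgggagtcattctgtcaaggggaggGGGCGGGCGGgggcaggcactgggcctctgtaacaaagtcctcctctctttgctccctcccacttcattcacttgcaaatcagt

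The Cldn2 window held 1 TATA match, whose first base lies at -35 from the start, and no GC box. The Cdh6 window held 2 GC box matches, with first bases at -84 and -80, and no TATA match. Of 27025 promoters of the same length, 13.0% held TATAAA and 32.9% held GGGCGG. Neither window held TGANTCA (AP-1, in 6.87% of promoters), CCGGAA (Ets, in 12.2%) or CAGGTG (E-box, in 17.1%). These are matches of letters and say nothing of binding.

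The first question was how the families differ between cells with and without oncogenic Ras. Cdh17 (liver-intestine cadherin, a cadherin of intestinal and some liver epithelia) and Cldn2 rose with Ras, and Cdh2 and Cdh6 (K-cadherin, of embryonic kidney) fell. In RasHIGH cells against the empty vector, 5 of the 11 members tested were called at an adjusted p below 0.05, while of all genes tested 22.6% were called, 10.9% as higher and 11.7% as lower. The 3 higher members were Cdh17, Cldn2 and Cdh5, and the 2 lower were Cdh2 and Cdh6. Cdh5 passed the filter on low counts only through RasHIGH, so its direction was set by the filter. In RasLOW cells 3 of 12 members were called, where 5.96% of all genes were, 1.92% as higher and 4.05% as lower. Cdh17 was the 1 higher member there, and Cdh2 and Cdh6 were the 2 lower. The median log2 change of the tested members was 0.22 in RasHIGH and 0.016 in RasLOW cells, beside -0.024 and 0.011 over all genes.

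Cdh17 stood at 180, 184 and 267 CPM in the empty vector cultures, at 1248, 720 and 529 CPM in RasLOW and at 1516, 1492 and 1388 CPM in RasHIGH. No culture of one group overlapped another, and RasLOW culture 1 was near the RasHIGH cultures. Its log2 fold change was 1.94 ± 0.33 (SE) in RasLOW (adjusted p = 0.0197) and 2.76 ± 0.19 in RasHIGH (adjusted p = 0.000304). The gene lies on chromosome 4 from 11685294 to 11745042, plus strand, on mm9.

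Cldn2 stood at 191, 104 and 173 CPM with the empty vector, at 466, 407 and 234 CPM in RasLOW and at 998, 899 and 693 CPM in RasHIGH. These groups did not overlap either. The change in RasHIGH was 2.43 ± 0.26 (adjusted p = 0.0014), and that in RasLOW was 1.20 ± 0.32, which missed the threshold (adjusted p = 0.072). DESeq2 (adjusted p = 0.00335), edgeR without the filter on low counts (0.0432) and edgeR with all libraries in one fit (0.0016) called it. The other settings did not, among them edgeR with the replicate block (0.129) and without any 1 library (0.0601 to 0.206). On mm9 the gene runs from 136335367 to 136345925 on the plus strand of chromosome X.

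Cdh2 fell. It was at 653, 644 and 460 CPM with the empty vector, at 195, 175 and 237 CPM in RasLOW and at 124, 140 and 165 CPM in RasHIGH. Every Ras culture lay below every empty vector culture. Its log2 fold change was -1.57 ± 0.19 in RasLOW (adjusted p = 0.00838) and -2.07 ± 0.19 in RasHIGH (adjusted p = 0.00081).

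Cdh6 fell further. Its levels were 216, 114 and 110 CPM with the empty vector, 9.24, 39.2 and 31.2 CPM in RasLOW and 15.9, 6.07 and 12.0 CPM in RasHIGH. The Ras groups overlap each other through RasLOW culture 1, and neither overlaps the empty vector. The log2 fold change was -2.49 ± 0.54 in RasLOW (adjusted p = 0.042) and -3.74 ± 0.43 in RasHIGH (adjusted p = 0.00167). It lies on chromosome 15 from 12963955 to 13103394, minus strand, on mm9.

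Cdh5 was absent or nearly so without Ras. It had 0, 2 and 4 counts in the empty vector cultures, 83, 11 and 8 counts in RasLOW and 282, 212 and 130 counts in RasHIGH. In CPM the RasHIGH cultures held 10.7, 9.13 and 5.86, and RasLOW culture 1 stood apart from its group at 2.98 beside 0.361 and 0.324. The fitted log2 change in RasHIGH was 6.78 ± 0.64 (adjusted p = 0.000855), a fold against a group at about the level of 3 counts, so its size is uncertain. Cdh5 was tested there only because RasHIGH passed the filter on low counts. In edgeR without that filter the change was 6.80 (adjusted p = 0.000161). The gene is on chromosome 8 from 106625525 to 106668402, plus strand, on mm9.

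Cdh3 (P-cadherin) went the other way at a low level. It had 62, 12 and 9 counts with the empty vector and 0 in each of the 6 Ras cultures. Set against the level of 3 counts, its mean of 0.970 CPM was at least 7.98-fold lower in RasLOW and at least 7.17-fold lower in RasHIGH. Most of these counts were in empty vector culture 1, without which the mean was 0.373 CPM and the bounds were 3.07-fold and 2.76-fold. It missed the threshold in RasLOW (adjusted p = 0.0629), where DESeq2 called it (adjusted p = 0.000353), and was below the filter on low counts in RasHIGH. Cdh3 and Cdh1 are neighbours on chromosome 8, with 46442 bases between them, and Cdh1 did not share this pattern.

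Cdh1 was at 342 ± 84.8, 320 ± 74.7 and 411 ± 112 CPM (SD, n = 3) with the empty vector, in RasLOW and in RasHIGH. The cultures of all 3 groups overlap, and no comparison called it, with log2 changes of -0.13 ± 0.25 and 0.22 ± 0.25 against the empty vector. Cldn12, a widely expressed claudin, was at 68.0, 89.5 and 72.7 CPM in the same order, with a change in RasLOW of 0.36 ± 0.14 (adjusted p = 0.186). Cdh13, a cadherin held to the membrane by a lipid anchor, varied more within than between groups, from 7.47 to 36.3 CPM with the empty vector and from 11.9 to 39.3 CPM in RasHIGH. Cdh11, Cdh24 and Cldn18 stayed between 1.12 and 4.48 CPM on average in these 3 groups and were not called.

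**Figure D2:**
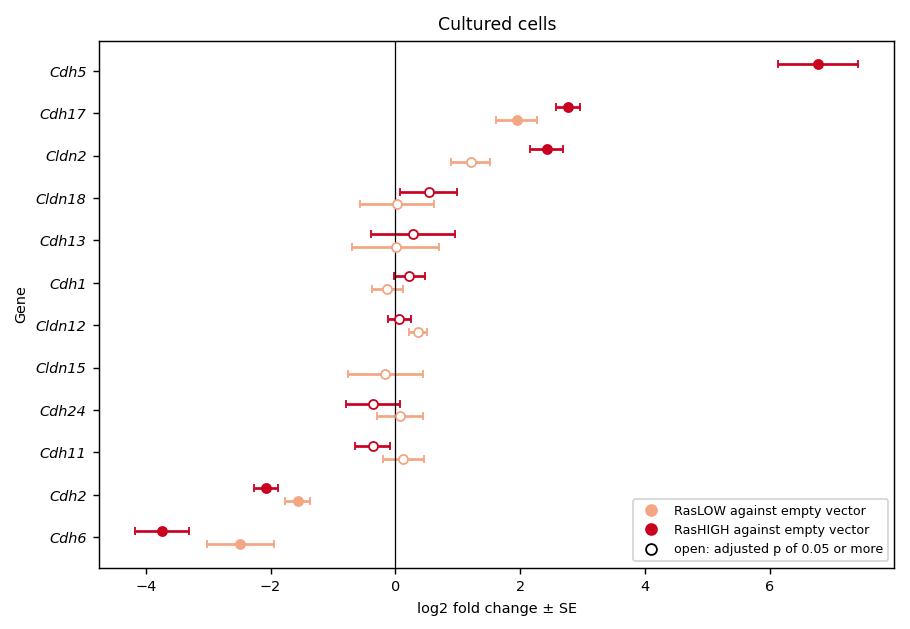
Log2 fold change (x axis, with SE) of the tested members with a group mean of at least 1 CPM in RasLOW and in RasHIGH against the empty vector, from 3 cultures a group. Filled points have an adjusted p below 0.05. Cdh5, Cdh17 and Cldn2 lie to the right and Cdh2 and Cdh6 to the left in RasHIGH, and Cdh3, at 0 in the Ras cultures, is left out.

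Between RasHIGH and RasLOW cells no member was called by edgeR, where 9 of all genes (0.0752%) were. DESeq2 called 2 of the 12 members, Cldn2 and Cdh5, where it called 419 of 11953 genes. At an unadjusted p below 0.05 there were 4 of the 12 members, with no share over all genes to set beside them. Cdh5 passed the filter on low counts only through RasHIGH here too. Cldn2 was 1.23 ± 0.28 higher on the log2 scale in RasHIGH (adjusted p = 0.175) and Cdh17 0.83 ± 0.30 (adjusted p = 0.418), each without overlap of the cultures. Cdh5 was 2.82 ± 0.84 higher (adjusted p = 0.293), and without RasLOW culture 1 the value was 4.61 (adjusted p = 0.0431). All 3 comparisons among cultures share samples.

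Sequencing lane went in part with these groups, since 2 of the 3 empty vector libraries were run on lane 3 and all Ras libraries on lane 4. Within lane 4, with its single empty vector library, the 5 members called in RasHIGH kept their direction. Their log2 changes were 2.41 for Cdh17, 2.28 for Cldn2, 5.76 for Cdh5, -1.73 for Cdh2 and -3.32 for Cdh6. The RasLOW changes were 1.59 for Cdh17, -1.22 for Cdh2 and -2.07 for Cdh6 there. With 1 empty vector library, calls in the lane 4 fits are not weighed. Without any 1 of the empty vector libraries the only RasLOW call among the 14 members tested was Cdh2. In these fits 148 to 218 of all genes were called, beside 734 in the main fit.

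Partners of these proteins were called in both directions. Of the tight junction partners, 4 of 11 tested were called in RasHIGH against the empty vector, where 22.6% of all genes were. Ocln (occludin) rose by 1.79 ± 0.29 and Jam2 by 1.19 ± 0.18, whereas Tjp1 (ZO-1) fell by 0.92 and Jam3 by 2.76 on the log2 scale. Of the adherens junction partners 6 of 11 were called. Ctnnb1 (β-catenin) rose by 0.74 ± 0.17 and Afdn (afadin) by 0.60 ± 0.13, and Nectin1, Nectin3 and Nectin4, adhesion molecules of the immunoglobulin family, fell by 2.97, 1.36 and 2.60. In RasLOW, where 5.96% of all genes were called, Nectin1 was the 1 partner called, at -2.15 ± 0.20 (adjusted p = 0.00416).

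**Figure D3:**
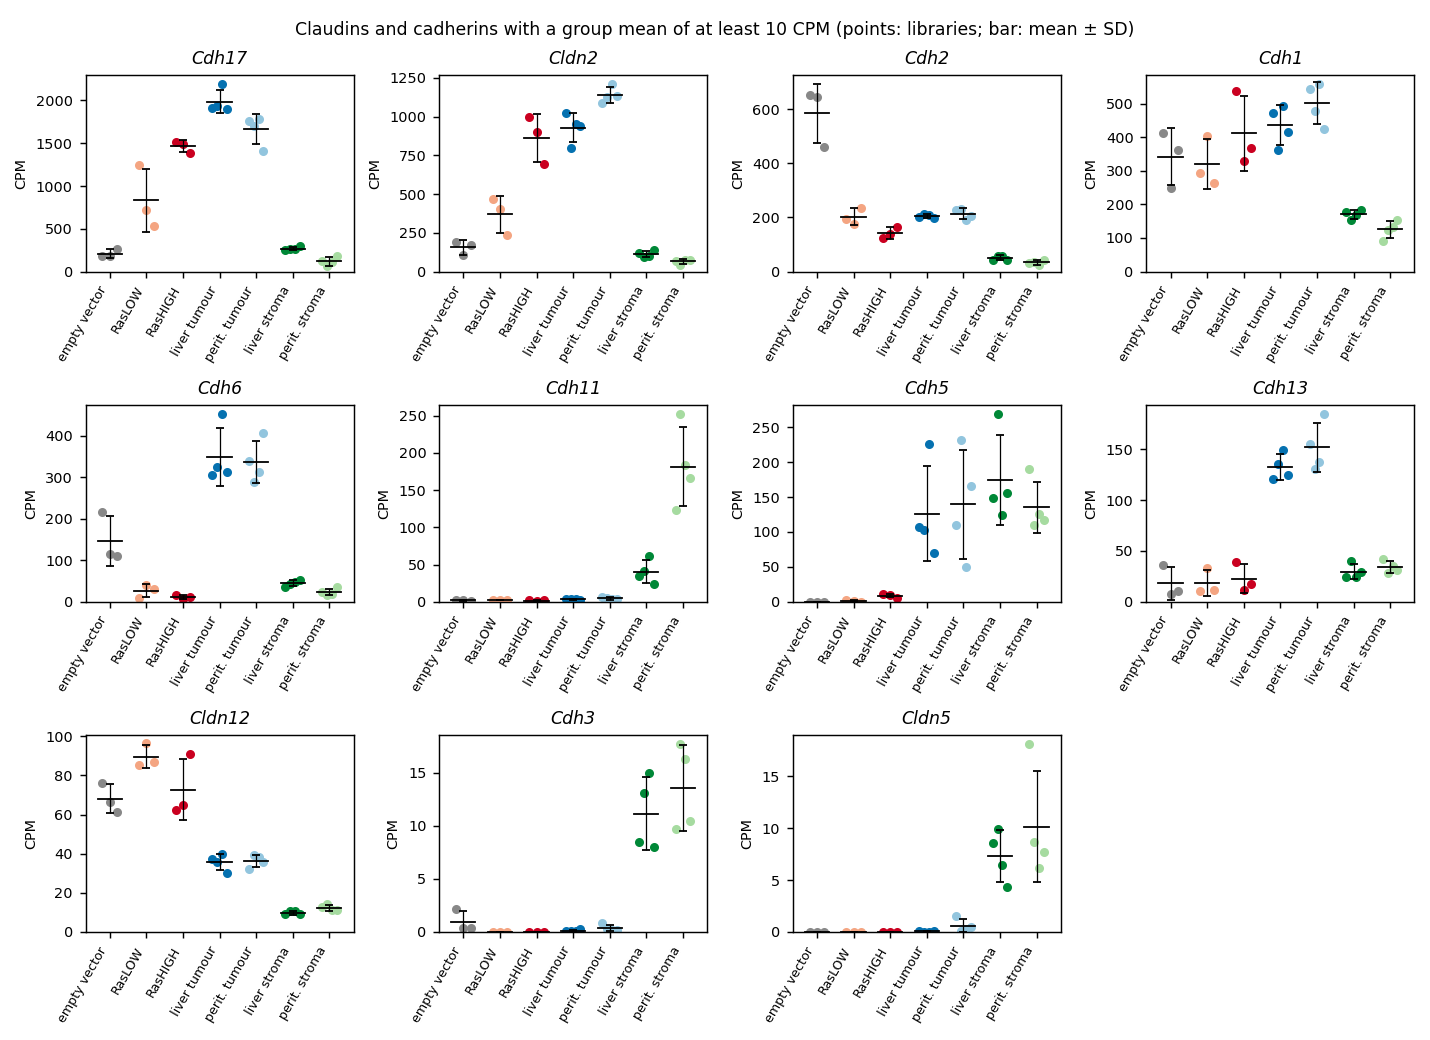
CPM (y axis, linear, from 0) of the 11 members with a group mean of at least 10 CPM. Points are libraries, bars the mean and SD of each group. Cdh17 and Cldn2 climb from the empty vector to the tumour cells, Cdh6 is low in both Ras cultures and high in tumour cells, and Cdh11, Cdh3 and Cldn5 appear in stroma.

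Tumour cells were then set beside the cultured RasHIGH cells. Against these, 11 of 15 members were called in liver tumour cells (Cdh2, Cdh5, Cdh6, Cdh11, Cdh13, Cdh17, Cdh23, Cdh24 and Cldn23, 9 in all, higher, and 2, Cldn9 and Cldn12, lower), while 45.1% of all genes were called, 23% as higher and 22.1% as lower. Leukocyte markers went from a median of 10.3 CPM in RasHIGH to 72.9 CPM in liver tumour cells and fibroblast markers from 1.17 to 43.4 CPM, and Cdh11 and Cdh23, both higher still in stroma, are among the higher members. The part of stromal cells in these calls was not tested. Culture against sorted cells, dissociation and lane cannot be told apart in this comparison. The median log2 difference of the tested members was 0.999, beside -0.011 over all genes. Cdh23 and Cldn23 passed the filter on low counts only through the tumour cells, and Cldn9 only through RasHIGH. Their direction was thus set by the filter, and they are part of that median.

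Cdh6, low in both Ras cultures, was at 306, 324, 453 and 313 CPM in the liver tumour cells of mice 1 to 4 and at 340, 290, 314 and 406 CPM in the peritoneal ones. All 8 values lie above the 3 empty vector cultures, a comparison that was not tested. Against RasHIGH the liver tumour cells were 4.94 ± 0.35 higher on the log2 scale (adjusted p = 2.4e-05). Cdh2, the other cadherin that fell with Ras, was only 0.53 ± 0.12 higher (adjusted p = 0.0074) and at 205 ± 7.51 CPM (SD, n = 4) still far below the 586 CPM of the empty vector cultures.

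Liver tumour cells held Cdh13 at 121, 135, 149 and 125 CPM, above every culture, and differed from RasHIGH by 2.55 ± 0.37 (adjusted p = 0.000776). Cdh17 was 0.44 ± 0.11 higher than in RasHIGH cells (adjusted p = 0.0102) and Cldn2 0.11 ± 0.15 (adjusted p = 0.587), so that Cldn2 in liver tumour cells overlapped the RasHIGH cultures. With all libraries in one fit the call of Cdh17 was lost (adjusted p = 0.188). Cldn12 was 1.03 lower, at 35.6 ± 4.12 CPM beside 72.7 ± 15.7 CPM (SE of the log2 difference 0.16, adjusted p = 0.00119). Cdh23, known from the hair cells of the inner ear, was near the count floor in RasHIGH and at 0.994 CPM in liver tumour cells.

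Cdh5 gave the widest spread among tumours. Liver tumour cells of mice 1 to 4 held 107, 103, 226 and 69.9 CPM and peritoneal tumour cells 110, 232, 49.7 and 166 CPM. Stroma held 149, 269, 124 and 156 CPM in the liver and 189, 109, 126 and 117 CPM in the peritoneum. Tumour and stromal cells overlap at both sites, and neither comparison called the gene (log2 difference -0.50 ± 0.33, adjusted p = 0.185, in the liver and 0.11 ± 0.42, adjusted p = 0.82, in the peritoneum). Liver tumour cells exceeded RasHIGH by 3.88 ± 0.43 (adjusted p = 0.00021). In sorted cells, a change in the share of one kind of cell and a change in RNA per cell cannot be told apart.

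Other endothelial genes were far lower in tumour cells than in stroma. Pecam1 was at 0 in the RasHIGH cultures, at 1.03 to 2.85 CPM in liver tumour cells and at 1.90 to 2.59 CPM in the peritoneal tumour cells of mice 2 to 4, with 19.3 CPM in mouse 1, beside 143 to 232 CPM in stroma. The ratio of Cdh5 to Pecam1 was 31.2 to 131 in liver tumour cells, 5.69 to 122 in peritoneal tumour cells, and 0.537 to 1.30 over both stromata. Without Ptprb, which the BMEL cultures themselves express, the other 7 endothelial markers together summed to between 3.86 and 7.49 CPM in liver tumour cells, against 0 to 0.180 CPM in RasHIGH cells and 446 to 1016 CPM in liver stroma. Cldn5, the claudin of endothelium, was at 0 in all 9 cultures, at no more than 0.114 CPM in liver tumour cells and at 4.28 to 9.96 CPM in liver stroma. The peritoneal tumour cells of mouse 1 held 43.1 CPM of these endothelial markers and 1.498 CPM of Cldn5, but their Cdh5 of 110 CPM lay within the range of the other 3 mice.

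**Figure D4:**
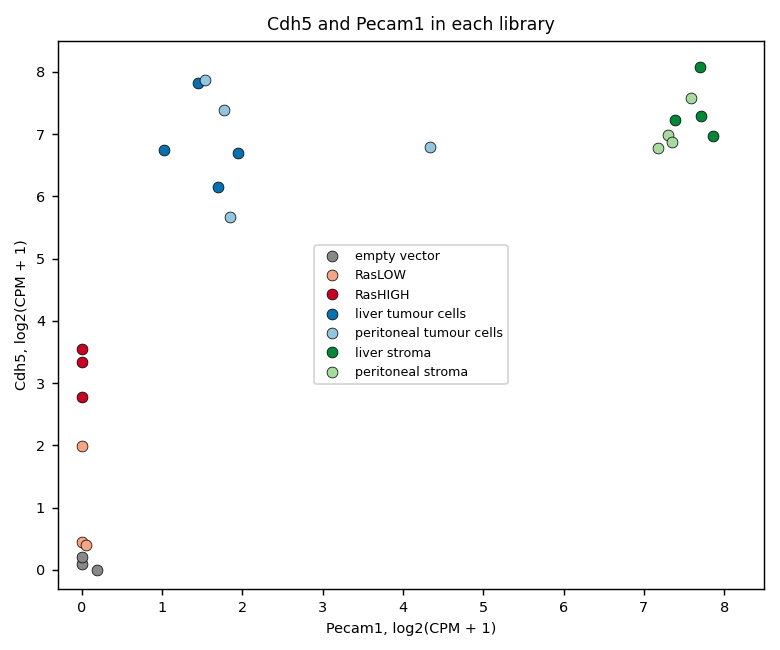
Cdh5 (y axis) against Pecam1 (x axis) in each of the 25 libraries, both as log2(CPM + 1). Stroma libraries are high in both genes, tumour cells are as high in Cdh5 but low in Pecam1, with the peritoneal tumour cells of mouse 1 between, and RasHIGH cultures have Cdh5 at 5.86 to 10.7 CPM without Pecam1.

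Tumour cells and stroma of the same site differed in most members, as they did in most genes. In the liver 21 of 23 members were called, 10 higher and 11 lower in tumour cells, where 77.8% of all genes were called, 38.4% as higher and 39.4% as lower. In the peritoneum 19 of 21 were called, 9 higher and 10 lower, beside 76.6%, 39.5% and 37.1% of all genes. With so many genes called, the counts say little about the members as such. Of the 20 members tested at both sites 18 were called at both, 9 higher and 9 lower in tumour cells, and no member changed direction. Cldn1, Cldn3, Cldn10 and Cldn11 had no more than 7 counts in any tumour cell library and passed the filter only through stroma. Cdh3, Cldn5 and Cldn15 likewise passed it only through stroma at both sites, and Cdh23 did so in the peritoneum. Cldn18 passed it only through tumour cells at both sites. The direction of these members was thus set by the filter, and their agreement between sites is no evidence. Both sites also come from the same mice, so they are not independent.

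The 9 members higher in tumour cells at both sites were Cldn2, Cldn12, Cldn18, Cdh1, Cdh2, Cdh6, Cdh13, Cdh17 and Cdh24. Cldn2 differed most in both, by 2.999 ± 0.143 in the liver and 4.20 ± 0.20 in the peritoneum on the log2 scale, followed by Cdh6 (2.93 and 3.91) and Cdh17 (2.86 and 3.87). Cdh1 differed by 1.33 ± 0.11 and 2.06 ± 0.17, and Cdh24, a type II cadherin at 3.32 to 7.20 CPM on average in every group, by 0.88 and 0.76. Cldn18, a claudin of lung and stomach, had a mean of 4.20 ± 2.01 CPM in tumour cells of the liver and 0.774 CPM in its stroma.

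The members lower in tumour cells at both sites were Cldn1, Cldn3, Cldn5, Cldn10, Cldn11, Cldn15, Cdh3, Cdh11 and Cdh23. In the liver the groups overlap for Cdh23, at -0.95 (adjusted p = 0.0185), and its call was lost with all libraries in one fit (adjusted p = 0.0984) and without the tumour cells of mouse 1 or mouse 2 (0.0555 and 0.0534). Cdh11 (OB-cadherin, of mesenchyme and osteoblasts) held 3.10, 3.62, 3.36 and 2.69 CPM in tumour cells of the liver and 34.1, 41.4, 61.2 and 24.5 CPM in its stroma. In the peritoneum it was at 6.37, 4.92, 3.11 and 3.03 CPM in tumour cells and at 124, 252, 184 and 166 CPM in stroma. The groups were far apart, with log2 differences of -3.68 ± 0.25 and -5.32 ± 0.34. Without the peritoneal tumour cells of mouse 1 the peritoneal log2 difference was -5.64 for Cdh11, -6.02 rather than -5.19 for Cdh3 and -5.20 rather than -4.07 for Cldn5, and each was still called. Fibroblast markers moved with it, summing to 3090 to 6101 CPM in liver stroma and to 26290 to 45160 CPM in peritoneal stroma, and their part in the result was not tested.

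Cdh3 was at 11.1 ± 3.42 CPM in liver stroma and 13.5 ± 4.03 CPM in peritoneal stroma (SD, n = 4), and at 0.112 and 0.358 CPM in the tumour cells of these sites. The sealing claudins Cldn1 and Cldn3 had means of 3.57 and 2.73 CPM in liver stroma and 2.94 and 1.30 CPM in peritoneal stroma, and reached no more than 0.198 CPM in any tumour cell library. The channel-forming claudins Cldn10 and Cldn15 reached 2.98 and 6.41 CPM in peritoneal stroma. Low as they are, these claudins were found in cells sorted as negative for the reporter.

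**Figure D5:**
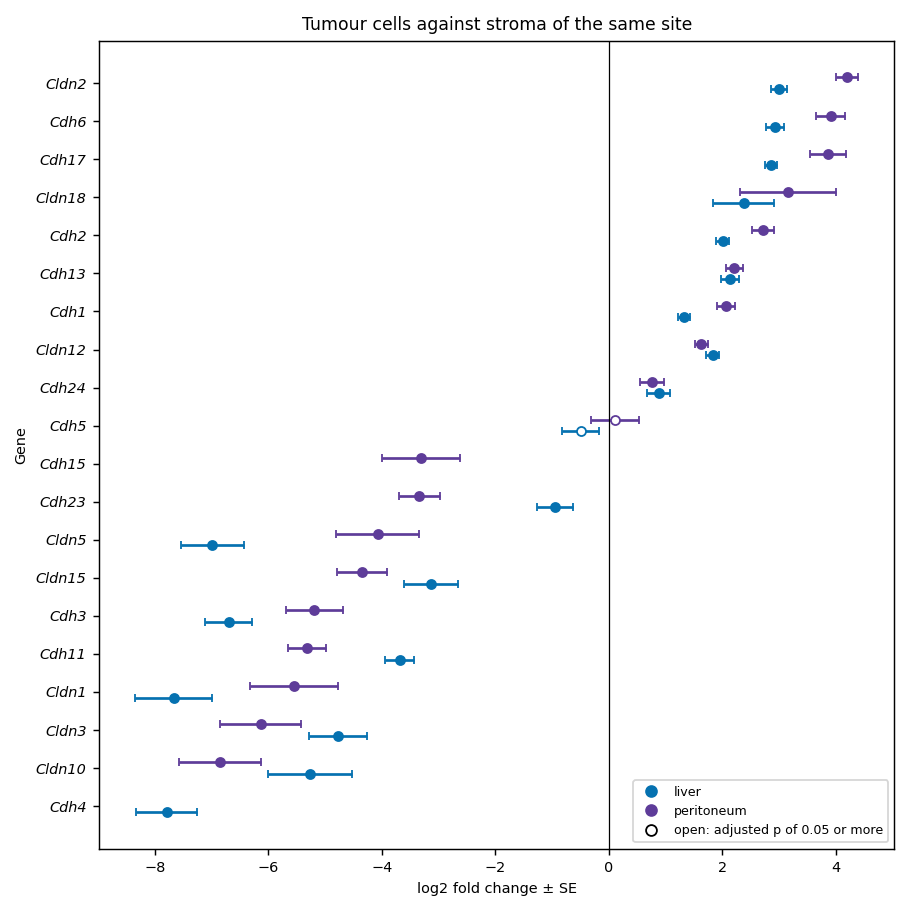
Log2 fold change (x axis, with SE) of each tested member with a group mean of at least 1 CPM in tumour cells against stroma of the same site, 4 mice a group. Filled points have an adjusted p below 0.05, and only Cdh5 is open at both sites. Cldn2, Cdh6 and Cdh17 are farthest to the right, more so in the peritoneum.

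Members of tumour cells were also present in stroma, at a fraction of the tumour level. In the liver, stroma held 12.0 to 15.8% of the Cdh17 of the tumour cells of the same mouse, 10.3 to 14.9% of the Cldn2 and 10.7 to 16.9% of the Cdh6. Keratins gave like fractions, 12.8 to 15.2% for Krt8, 14.4 to 16.01% for Krt18 and 12.9 to 14.8% for Krt19. In the peritoneum the medians were 6.75% for Cdh17, 6.29% for Cldn2 and 6.37% for Cdh6, beside 7.18, 7.25 and 7.10% for the same keratins. Other members of tumour cells lay above every keratin fraction of their site. In the liver these were Cdh1 (34.1 to 43.9%), Cldn12 (24.3 to 29.8%), Cdh2 (20.3 to 27.9%) and Cdh13 (16.6 to 29.7%). In the peritoneum they were Cldn12 (29.0 to 40.2%), Cdh1 (17.0 to 36.0%) and Cdh13 (16.8 to 27.2%), while Cdh2, at 12.3 to 21.5%, met the highest keratin fraction. The part of tumour cells in the stromal libraries was not tested.

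The next question was whether junction genes differ between the liver and the peritoneal site. In tumour cells 1 of 17 members was called, while 3.2% of all genes were. That member was Cdh23, at 0.616, 0.791, 1.51 and 1.06 CPM in the liver and 0.156, 0.272, 0.173 and 0.148 CPM in the peritoneum of mice 1 to 4. Cdh23 passed the filter on low counts only through the liver tumour cells, so its direction was set by the filter. The groups do not overlap, and the log2 difference was 2.37 ± 0.41 (adjusted p = 0.0199). With the mouse as a block, however, the adjusted p was 0.0683. Without the liver library of mouse 2 or of mouse 4 it was 0.0697 or 0.068. The 2 sites of a mouse shared a lane in all mice but mouse 2, and with lane as a factor the difference was 2.57 (adjusted p = 0.0277). Cldn2 was lower in the liver in 4 of 4 mice, by 0.31 ± 0.08 (adjusted p = 0.0748), and Cdh17 higher in 4 of 4, by 0.25 ± 0.09 (adjusted p = 0.159). Both missed the threshold, and DESeq2 called Cldn2 (adjusted p = 0.00666).

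In stroma 9 of 22 members were called, 6 higher and 3 lower in the liver, where 33.4% of all genes were called, 14.9% as higher and 18.5% as lower. Cdh4 (R-cadherin) was at 2.44, 5.12, 4.34 and 3.53 CPM in liver stroma and at 0.0373, 0.0469, 0.208 and 0.349 CPM in peritoneal stroma, a log2 difference of 4.47 ± 0.53 (adjusted p = 0.000187). It was at or near 0 in all other groups, so these libraries of liver stroma hold nearly all of its counts. Cdh11 was lower in the liver by 2.22 (SE 0.29, adjusted p = 0.000374), and Cdh15 (M-cadherin, of muscle) by 4.04 (SE 0.61, adjusted p = 0.000807) at 1.28 CPM in peritoneal stroma. Cdh4 passed the filter on low counts only through liver stroma, as did Cldn4 below, and Cdh15 only through peritoneal stroma. The direction of these members was thus set by the filter.

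Cdh17, Cdh6 and Cldn2 were higher in liver stroma by 1.12 ± 0.26, 0.89 ± 0.22 and 0.76 ± 0.19. The keratin Krt8 in stroma was 12.8 to 15.2% of the tumour cell level in the liver and 6.05 to 11.2% in the peritoneum. Hepatocyte markers summed to a median of 78.7 CPM in liver stroma and 1.27 CPM in peritoneal stroma. The part of tumour cells or hepatocytes in these differences was not tested. The remaining calls were Cldn4 (2.41 ± 0.47), Cldn3 (1.03 ± 0.35, adjusted p = 0.0462, and 0.0586 with the mouse as a block) and Cldn12 (-0.38 ± 0.13, adjusted p = 0.0479). With the block Cdh1 (0.42), Cdh3 (-0.33) and Cldn18 (1.86) were called as well, at adjusted p-values of 0.0448, 0.0462 and 0.0293.

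The site effects in tumour cells and in stroma were compared with each other directly. Of 25 members 7 were called, against 14.3% of all genes. Cldn2 was lower in the liver in tumour cells, though edgeR did not call this (adjusted p = 0.0748), and higher there in stroma. Its site effects differed by -1.14 ± 0.23 (adjusted p = 0.00419). The part of tumour cells in the stromal libraries, whose keratin fractions also differed by site, was not tested. Cdh23 (2.44 ± 0.49), Cdh11 (1.69 ± 0.41) and Cdh15 (4.28 ± 1.07) had a higher or less negative difference of liver minus peritoneum in tumour cells than in stroma, and Cdh1 (-0.69 ± 0.20), Cdh6 (-0.93 ± 0.29) and Cdh4 (-4.98 ± 1.58) a lower one. The median over all genes was -0.12. Here too Cdh4 passed the filter on low counts only through liver stroma and Cdh15 only through peritoneal stroma. The calls of Cldn2, Cdh23, Cdh11 and Cdh15 held without any 1 of the 16 libraries, and those of Cdh1, Cdh6 and Cdh4 did not.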

How the data were processed

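Raw counts of reads per gene were deposited by the authors without normalization, for 25 mRNA libraries and 24984 genes. The reads had been aligned to mm9 with TopHat2. The counting program, annotation and strand setting are not given in the sources used here, so reads of overlapping or antisense genes cannot be separated. The submitters' processing notes also name FastQC and Bowtie 0.12.2. Each of the columns was mapped to 1 sample through its title.

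Counts were analysed with edgeR 4.0.16 in R 4.3.3. Each comparison used the libraries of its 2 groups, filterByExpr (minimum count 10), TMM and edgeR's quasi-likelihood test, p-values were adjusted over every gene tested (Benjamini-Hochberg), and a gene was called at an adjusted p below 0.05. The interaction of site and cell kind was fitted on the 16 sorted libraries. CPM values are TMM-scaled over all 25 libraries. RPKM values use exon lengths of GENCODE vM1 (mm9), found for 46 members, which may not be the annotation counted. Intervals of counting error do not cover PCR duplicates. The fit was tested on simulated data.

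The members and lists were chosen with earlier results of these data known. Every member with a group mean of 1 CPM is named. Members with a group mean of at least 10 CPM, and those called in at least 2 comparisons with a mean of at least 3 CPM, may be given in every library; Cdh23 was added after its values were seen. List genes are named where called and among the 3 largest changes each way. Culture numbers only name samples. Mouse numbers pair libraries of 1 animal, and same-numbered libraries deviated together between tumour cells and stroma (mean r across genes 0.17 in the liver and 0.165 in the peritoneum), less so between sites (-0.0561 in tumour cells and 0.0957 in stroma). The study's methods describe the samples of each cell line and of the tumours as biologically independent, and all cultures are of 1 line. The alternatives were DESeq2 1.42.0, RLE normalization, other filters on low counts, 1 fit of all libraries, the study's thresholds, a replicate block, the lane, CPM without TMM and leaving out each library. One gene of the epithelial marker list, and the sum of that list, are not reported here.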

Additional observations from a re-analysis of the deposited data

Results flagged for a closer look

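In 3 of the 58 groups of 4 libraries examined, 1 library stood far from the others, and chance alone marks about 1 in 20 groups. In the liver tumour cells of mouse 3, Cdh17 was at 2197 CPM and Cdh6 at 453 CPM, above the other mice. Cldn18 in the liver tumour cells of mouse 2 was at 1.22 CPM, below the other mice at 4.90 to 5.54 CPM.

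For 7 members the difference between liver and peritoneum was not the same in tumour cells as in stroma, by the interaction test of edgeR. The site effect in tumour cells minus that in stroma was -0.69 for Cdh1, 1.69 for Cdh11, 4.28 for Cdh15, 2.44 for Cdh23, -4.98 for Cdh4, -0.93 for Cdh6 and -1.14 for Cldn2 on the log2 scale. Cldn2 and Cdh1 were lower in the liver in tumour cells and higher there in stroma in 4 of 4 mice each. Neither tumour cell difference was called by edgeR (adjusted p = 0.0748 and 0.359). The part of tumour cells in the stromal levels was not tested. Cdh15 and Cdh4 rest on means of no more than 3.86 CPM, and each passed the filter on low counts only through the stroma of 1 site.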

How the results depend on the processing

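For the 5 members called in RasHIGH against the empty vector, direction held under every alternative run. The call held under each run with more than 1 library a group. In the main fit Cdh5 passed the filter on low counts only through RasHIGH. The number of members called is given with the number of all genes called in brackets. In RasLOW against the empty vector it was 3 (734). It became 5 (1622) with DESeq2, 5 (822) without a filter on low counts, 6 (2440) with all 25 libraries in one fit and 1 (295) with a replicate block. No count is given for lane 4 only. In RasHIGH against the empty vector the number went from 5 (2789) to 8 (2783) without the filter and to 8 (4347) in one fit. In RasHIGH against RasLOW it went from 0 (9) to 2 (419) with DESeq2 and 2 (917) in one fit. Between tumour cells of the sites it went from 1 (419) to 2 (1146) with DESeq2, 0 (425) with a filter at 2 CPM and 0 (102) with the replicate block. Smaller relative shifts are not listed for every setting. Between the stromata 9 (4926) became 13 (5463) with DESeq2 and 6 (4718) with the filter at 2 CPM. For peritoneal tumour cells against stroma 19 (11168) became 26 (12092) without the filter. Stricter or looser filters change which genes are tested, lane 4 leaves 1 empty vector library, assumed to vary like the Ras cultures, and the cause of the other changes was not tested. The culture numbers did not pair the cultures (mean r -0.0789 for RasLOW and 0.024 for RasHIGH with the empty vector), and the block changed the calls named beside the results, ended the RasLOW calls of Cdh17 and Cdh6 (adjusted p = 0.0606 and 0.11), and added Cdh16 in peritoneal tumour cells against stroma (0.0312), with Cdh17 and Cldn5 called and Cdh4 not called in the interaction (adjusted p = 0.0432, 0.0437 and 0.0554). RLE normalization ended the call of Cdh6 there (adjusted p = 0.0522). With 1 library left out, counts ran from 1 to 4 (148 to 2340) for RasLOW and 5 to 7 (1517 to 3896) for RasHIGH against the empty vector. They ran from 0 to 1 (0 to 16) for RasHIGH against RasLOW, 0 to 1 (41 to 884) for the sites in tumour cells and 8 to 11 (3976 to 4872) in stroma. Liver tumour cells against stroma gave 19 to 22 (11099 to 11353) and the peritoneal ones 19 in each case (10691 to 11070). Liver tumour cells against RasHIGH gave 10 to 13 (4510 to 8100), and the interaction 4 to 9 (1563 to 2117). Sign changes concerned differences that were not called. With 1 library left out, those of Cdh13 and Cdh5 moved well away from 0. Cdh13 in RasLOW against the empty vector was -0.0035 with the filter at 2 CPM, and Cdh5 in peritoneal tumour cells against stroma -0.033 with DESeq2, -0.033 with RLE and -0.067 with the replicate block. With 1 library left out, such log2 differences ran from -0.35 to 0.037 for Cdh1 and -0.80 to 1.03 for Cdh13 in RasLOW against the empty vector, -0.11 to 0.18 for Cldn12 and -0.34 to 1.32 for Cdh13 in RasHIGH, -0.34 to 1.08 for Cdh13 between the Ras groups, -0.11 to 0.015 for Cldn12, -0.60 to 0.19 for Cdh5 and -0.12 to 0.13 for Cdh6 between sites in tumour cells, -0.31 to 0.40 for Cdh5 in peritoneal tumour cells against stroma, -0.059 to 0.32 for Cdh1 and -0.033 to 0.22 for Cldn2 in liver tumour cells against RasHIGH, and -0.11 to 0.16 for Cdh13 in the interaction.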

Other observations

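Desmosomes, the junctions that anchor keratins, changed with Ras in part. Of 8 desmosomal genes tested, 4 were called in RasHIGH against the empty vector, beside 22.6% of all genes: Perp fell by 2.17, Dsp (desmoplakin) by 1.18 and Dsc2 by 3.50 on the log2 scale, and Pkp3 (plakophilin-3) rose by 2.35 ± 0.46. In RasLOW, with 5.96% of all genes called, Perp alone was called, at -1.32 ± 0.16 (adjusted p = 0.00804). Perp went from 578 CPM with the empty vector to 131 CPM in RasHIGH and 45.1 CPM in liver tumour cells.

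Connexins, the proteins of gap junctions, showed 2 calls of 6 tested in RasHIGH, where 22.6% of all genes were called. Gja1 (connexin 43) fell by 1.90, from 223 to 61.1 CPM (adjusted p = 0.0364), and Gjb1 (connexin 32, of hepatocytes) rose by 2.44 ± 0.71, from 5.01 to 28.2 CPM (adjusted p = 0.0485). Against RasHIGH both turned in liver tumour cells, with Gja1 at 158 CPM (1.37 ± 0.42) and Gjb1 at 3.67 CPM (-2.94 ± 0.58). Gjb1 was also the 1 connexin of 8 called between tumour cells of the sites, beside 3.2% of all genes, lower in the liver by 1.77 (adjusted p = 0.0319). Cgn (cingulin), a tight junction plaque protein, was 4.04 lower in liver tumour cells than in RasHIGH, at 2.46 beside 40.8 CPM.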
